A study of Mus musculus with 7 samples.

Results

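Cxcr4, Cxcl12 and Ackr3 encode a chemokine signalling unit, and their RNA was read in 7 mouse brain tumours of 2 glioblastoma stem-like lines. They are 3 of the 37620 gene identifiers counted, and all 3 were among the 16068 genes that passed the filter on low counts. They were chosen by name with their values in these tumours already known, so their levels and the differences between the lines are given as a description with no test. The 3 GSC2 tumours came from cells labelled shp53, Nf1-/- and CDK4, that is, a short hairpin against p53, loss of the Ras inhibitor gene Nf1, and CDK4. The 4 GSC1 tumours came from cells labelled lgT/Ras. Cells of both lines came from subventricular zone neural stem cells, were kept in neural stem cell culture and were injected into the brains of nude mice, which lack a thymus and so most T cells but keep B cells, NK cells and myeloid cells. The genetic changes go with the line, so their effects and other differences between the lines cannot be told apart, and the labels do not say whether a line is 1 clone. The series describes the tumours as independent, with 1 library per tumour.

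CXCL12 is a chemokine secreted in the brain by meninges, vessels and some neurons. It binds CXCR4, a receptor that couples to inhibitory G proteins and directs the migration of neuroblasts, granule cell precursors, leukocytes and tumour cells. ACKR3, formerly CXCR7, binds the same ligand, signals through arrestins rather than G proteins and removes CXCL12 from its surroundings. In glioblastoma CXCR4 is known from invasive and perivascular tumour cells, and its gene is a known target of hypoxia-inducible factors.

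Cxcr4 was the member that set the lines apart: its fitted level in GSC2 tumours was 3.28 times that in GSC1 tumours, and every GSC2 tumour lay above every GSC1 tumour. Cxcl12 overlapped between the lines and had its lowest and its highest level within GSC2. Ackr3 also overlapped, with a mean below that of GSC1 in the GSC2 tumours. The 2 receptor genes thus stood in a different proportion in the lines, with 3.80 to 7.15 times as much Cxcr4 as Ackr3 RNA per length in GSC2 tumours, against 0.834 to 1.36 times in GSC1 tumours.

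The promoters of the 3 genes are shown because 2 of them hold the core letters of a hypoxia response element and because hypoxia genes are read against the members further on. Each sequence gives the 250 bases before the gene's start from RefSeq on build GRCm38.p6, read 5′ to 3′ along the gene, and all 3 genes were found in the table. Cxcr4 is at chr1:128592300-128592549 on the minus strand, Cxcl12 at chr6:117168285-117168534 on the plus strand and Ackr3 at chr1:90203730-90203979 on the plus strand. The submitters' processing notes name another mouse build, mm9, so these positions are not on its coordinates. Capitals mark the hypoxia response element cores ACGTG and GCGTG and the TATA box letters TATAAA, each searched on both strands.
Cxcr4: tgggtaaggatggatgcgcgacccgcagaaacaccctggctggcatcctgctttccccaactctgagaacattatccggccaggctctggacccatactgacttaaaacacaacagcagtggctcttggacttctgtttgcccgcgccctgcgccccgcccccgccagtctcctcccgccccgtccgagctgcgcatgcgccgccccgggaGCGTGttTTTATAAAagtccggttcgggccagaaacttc
Cxcl12: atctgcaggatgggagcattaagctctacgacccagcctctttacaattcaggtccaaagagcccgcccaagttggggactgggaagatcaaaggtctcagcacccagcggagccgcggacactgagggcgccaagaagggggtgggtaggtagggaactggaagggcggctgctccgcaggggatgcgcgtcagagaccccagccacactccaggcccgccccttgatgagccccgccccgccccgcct
Ackr3: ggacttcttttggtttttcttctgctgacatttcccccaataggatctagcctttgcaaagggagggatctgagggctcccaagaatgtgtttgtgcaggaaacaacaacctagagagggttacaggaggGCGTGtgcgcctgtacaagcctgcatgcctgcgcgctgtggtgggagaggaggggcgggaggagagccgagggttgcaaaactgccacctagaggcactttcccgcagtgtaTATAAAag

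In the Cxcr4 promoter GCGTG lies at -39 to -35 from the start, just ahead of TATAAA at -30 to -25. A TATAAA on the opposite strand at -32 to -27 overlaps that TATA box. In the Ackr3 promoter GCGTG lies at -120 to -116 and TATAAA at -8 to -3. The Cxcl12 window holds neither core and no TATAAA. GC boxes, GGGCGG on either strand and left in lower case here, are in all 3 windows, and 2 of those in the Cxcl12 promoter share 1 base. Among 32851 promoter windows of the same length in the table, 28.2% hold GCGTG, 38.6% hold GCGTG or ACGTG, 12.4% hold TATAAA and 32.7% hold a GC box.

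Levels are given in CPM, reads scaled to a common library size with TMM factors, with 18643155 to 32643408 reads counted on genes per library. Cxcl12, the ligand gene, was at 15.1, 49.2 and 36.3 CPM in GSC2 replicates 1 to 3 and at 18.5, 23.8, 31.6 and 44.3 CPM in the 4 GSC1 tumours. The GSC2 tumours span the whole range of the GSC1 tumours. The mean was 33.5 ± 17.2 CPM in GSC2 (SD, n = 3) and 29.6 ± 11.2 CPM in GSC1 (SD, n = 4), with a log2 fold change of 0.18 (SE 0.46). Every log2 fold change in the text is GSC2 minus GSC1. The difference was smaller than the spread within either line. Without GSC2 replicate 2 it had the opposite sign, at -0.20 (SE 0.50).

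Cxcr4, the signalling receptor gene, was at 89.5, 62.1 and 108 CPM in GSC2 replicates 1 to 3 and at 31.1, 39.4, 15.9 and 18.9 CPM in GSC1 replicates 1 to 4. These values rest on 1760, 1772 and 2149 reads in GSC2 and on 1072, 1071, 401 and 397 reads in GSC1. The lowest GSC2 tumour was 1.58 times as high as the highest GSC1 tumour. In the order of the 7 tumours, the exact 95% Poisson intervals of the counts, which cover counting error only, overlapped between neighbours only for GSC1 replicates 3 and 4. The mean was 86.5 ± 22.9 CPM in GSC2 (SD, n = 3) and 26.3 ± 10.9 CPM in GSC1 (SD, n = 4), with a log2 fold change of 1.72 (SE 0.37). Its size exceeded that of 97.2% of the genes tested. GSC2 lay above all GSC1 tumours for 490 genes, 3.05% of those tested, which is the background for a gene chosen with this pattern known.

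Ackr3, the scavenger receptor gene, was at 21.3, 27.8 and 30.9 CPM in GSC2 replicates 1 to 3 and at 38.8, 52.9, 23.3 and 38.5 CPM in GSC1 replicates 1 to 4. All 3 GSC2 tumours were below GSC1 replicates 1, 2 and 4, and 2 of them were above GSC1 replicate 3. The mean was 26.7 ± 4.93 CPM in GSC2 (SD, n = 3) and 38.4 ± 12.1 CPM in GSC1 (SD, n = 4), with a log2 fold change of -0.53 (SE 0.31), or -0.33 without GSC1 replicate 2. In the order of levels, counting intervals overlapped between GSC2 replicate 1 and GSC1 replicate 3, between GSC2 replicates 2 and 3, and between GSC1 replicates 1 and 4. For Cxcl12 they overlapped between GSC2 replicate 3 and GSC1 replicate 3 and between GSC2 replicate 2 and GSC1 replicate 4. In whole tumours, fewer cells of a type and less RNA per cell cannot be told apart.

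**Figure D1:**
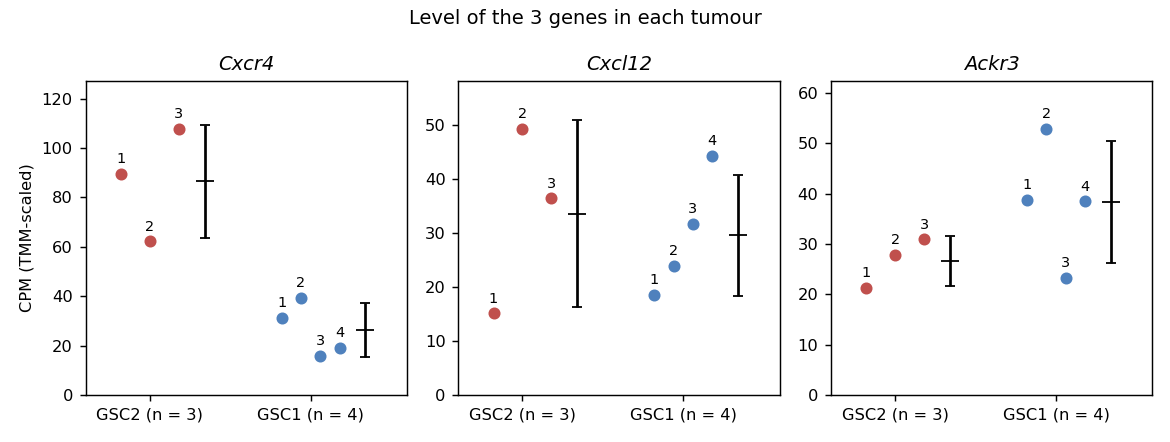
Level of Cxcr4, Cxcl12 and Ackr3 in CPM (vertical axes from 0) in each GSC2 and GSC1 tumour; points are tumours with their replicate number, and the bar beside them is the mean ± SD. Cxcr4 is between 62.1 and 108 CPM in GSC2 and between 15.9 and 39.4 CPM in GSC1, while the lines overlap in Cxcl12 and Ackr3.

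To set the genes beside each other, CPM was divided by transcript length, with the longest annotated transcript of 1805 bases for Cxcr4, 3065 for Ackr3 and 5627 for Cxcl12. On this scale Cxcr4 was at 49.6, 34.4 and 59.7 CPM per kilobase in GSC2 replicates 1 to 3 and at 17.2, 21.8, 8.83 and 10.5 in GSC1 replicates 1 to 4. Ackr3 was at 6.94, 9.06 and 10.1 CPM per kilobase in GSC2 and at 12.7, 17.3, 7.59 and 12.6 in GSC1. The ratio of Cxcr4 to Ackr3 was 7.15, 3.80 and 5.91 in GSC2 and 1.36, 1.26, 1.16 and 0.834 in GSC1, so GSC1 replicate 4 was the one tumour with more Ackr3 than Cxcr4 per length.

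The place of the ligand depends on which Cxcl12 transcript is assumed. With the longest, Cxcl12 was at 2.68, 8.74 and 6.46 CPM per kilobase in GSC2 and at 3.29, 4.23, 5.62 and 7.87 in GSC1, and Cxcr4 was above it in all 7 tumours. With the shortest coding transcript of 1878 bases, a choice made after seeing the data, it was at 8.02, 26.2 and 19.4 CPM per kilobase in GSC2 and at 9.86, 12.7, 16.8 and 23.6 in GSC1. Cxcr4 was then still above its ligand in the 3 GSC2 tumours and in GSC1 replicates 1 and 2, and was below it in GSC1 replicates 3 and 4, at 0.524 and 0.444 times its level. The counts per gene do not say which transcript the reads came from.

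**Figure D2:**
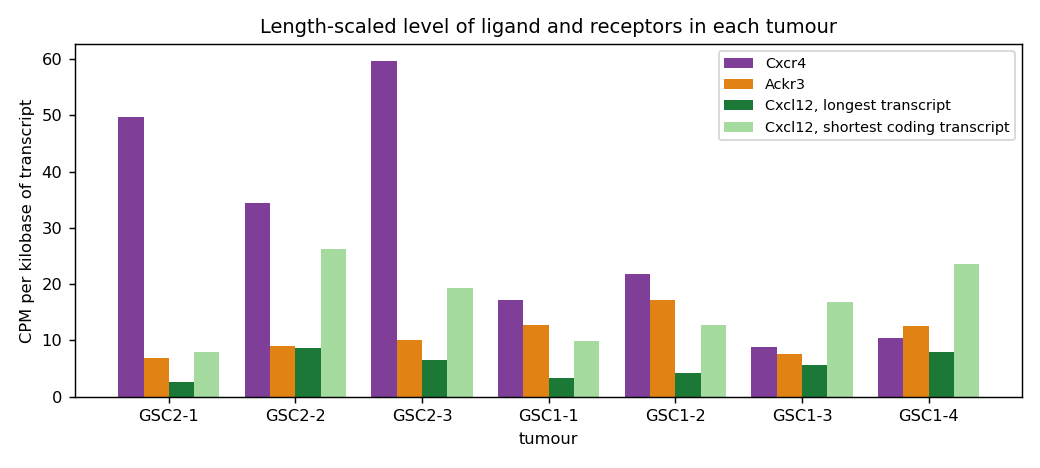
CPM per kilobase of transcript (vertical axis from 0) of Cxcr4, Ackr3 and Cxcl12 in each tumour, GSC2 left of GSC1, with Cxcl12 scaled by its longest and by its shortest coding transcript. Cxcr4 is between 34.4 and 59.7 in GSC2 and between 8.83 and 21.8 in GSC1, and Ackr3 does not exceed 17.3 in any tumour.

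The sign of the Cxcr4 difference was the same in every fit that was run. It was between 1.50 and 1.98 on the log2 scale when each tumour was left out in turn, 1.69 with RLE size factors and 1.64 with the replicate number as a block. At equal brain score, the mean of the log2 CPM scores of neuron and of mature oligodendrocyte genes, it was 1.96 (SE 0.23). The brain score was 6.37, 7.72 and 7.71 in GSC2 replicates 1 to 3 and 6.19, 4.96, 8.49 and 7.79 in GSC1 replicates 1 to 4. The difference was smallest, at 1.10 (SE 0.27), without GSC2 replicate 3 and GSC1 replicates 3 and 4.

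Those 3 libraries held fewer reads of long transcripts. The median log2 deviation of transcripts of 8000 bases or more, less the median for those of 2000 bases or fewer, was 0.37, 0.64 and -0.70 in GSC2 replicates 1 to 3 and 0.02, 0.54, -0.40 and -0.36 in GSC1 replicates 1 to 4. Cxcr4, a short transcript, had its highest level in GSC2 replicate 3 and its lowest levels in GSC1 replicates 3 and 4, and the part of transcript length in its levels was not tested. Without the 3 libraries the fold change of Ackr3 was -0.90 (SE 0.27), and that of Cxcl12 was 0.61 (SE 0.56).

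**Figure D3:**
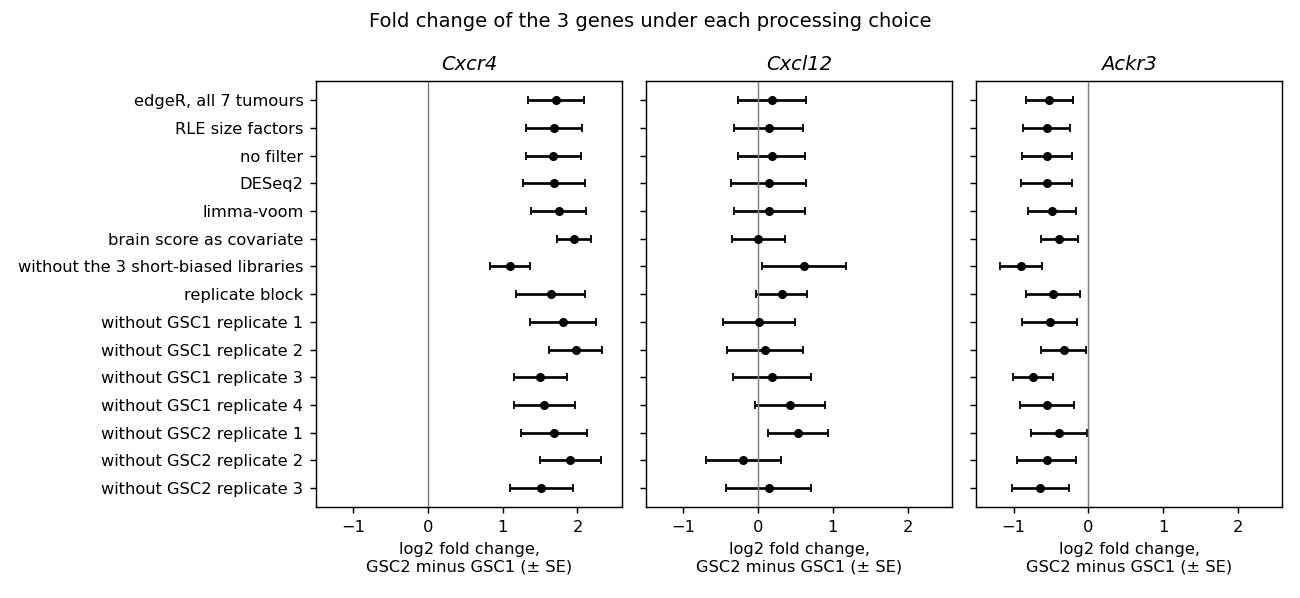
Log2 fold change, GSC2 minus GSC1, of each gene (horizontal axes; points with ± SE) under each fit, tool or set of tumours. Cxcr4 is above 0 throughout, from 1.10 to 1.98, Ackr3 is below 0 throughout, and Cxcl12 lies near 0 and is at -0.20 without GSC2 replicate 2.

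Other genes of CXCL12 signalling were read in the same fit, 88 genes in 5 lists of which 87 were tested. At an adjusted p under 0.05 the quasi-likelihood test of edgeR called 0 of the 87, and 0% of the 16068 genes tested. At an unadjusted p under 0.05 there were 2 of the 87, beside 677 of all genes or 4.21%. DESeq2 and the fit with the brain score also called 0 of the 87, where they called 192 genes or 1.2% and 176 genes or 1.1% of all, and limma-voom called 1 gene in all. The log2 fold change was positive in 44 and negative in 43 of the 87, with a median of 0.00, beside a median of -0.03 over all genes tested. Values of the lines were fully separate for 4 of the 87, beside 5.58% of all genes. GSC2 was above GSC1 for 2 of them, Cd74 and Rgs2, beside 3.05% of all genes, and below it for 2, Mmp9 and Rab7, beside 2.53%.

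Both genes under an unadjusted p of 0.05 belong to the list of other ligands and their partners, with 5 of 11 folds positive and a median of -0.06. Cd74, the invariant chain of MHC class II and the surface receptor for the cytokine MIF, with which CXCR4 can form a complex, was at 166, 111 and 154 CPM in GSC2 replicates 1 to 3 and at 88.5, 57.2, 70.9 and 93.3 CPM in GSC1 replicates 1 to 4. The lines did not overlap, and the log2 fold change was 0.89 (SE 0.26), with an adjusted p of 0.800 by the edgeR test. Mmp9, a gelatinase gene, was at 1.63, 1.51 and 3.61 CPM in GSC2 and at 3.97, 9.12, 4.57 and 4.14 CPM in GSC1, again with no overlap (log2 fold change -1.28, SE 0.52). Mmp2, which can cleave CXCL12, was at 15.7 ± 4.00 CPM in GSC2 and 22.6 ± 8.31 CPM in GSC1, and Hmgb1, whose protein binds CXCL12, at 472 ± 101 CPM in GSC2 and 380 ± 46.8 CPM in GSC1 (SD, n = 3 and 4). Mif itself, named for its role, was at 228, 167 and 281 CPM in GSC2 and at 322, 310, 212 and 252 CPM in GSC1.

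Among G proteins and RGS genes, whose products shorten G protein signals, 14 of 20 folds were positive, with a median of 0.08. Rgs3 was at 34.3, 46.8 and 22.8 CPM in GSC2 and at 17.0, 13.7, 22.7 and 27.5 CPM in GSC1 (log2 fold change 0.78, SE 0.34). Rgs2 was at 37.7 ± 2.55 CPM in GSC2 and 27.0 ± 10.0 CPM in GSC1, and its values did not overlap between the lines. Gnaq, a G protein alpha subunit gene, was at 134 ± 10.7 CPM in GSC2 and 111 ± 24.1 CPM in GSC1. Rgs4 varied widely, at 135 ± 94.2 CPM in GSC2 and 93.2 ± 47.9 CPM in GSC1 (SD, n = 3 and 4 for each).

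Genes of arrestins, receptor kinases and receptor sorting had 4 of 14 positive folds and a median of -0.16. Arrb1, the beta-arrestin 1 gene, was at 64.8, 130 and 103 CPM in GSC2 replicates 1 to 3 and at 123, 105, 214 and 207 CPM in GSC1 replicates 1 to 4 (log2 fold change -0.71, SE 0.37). Its lines overlapped through GSC2 replicate 2, and both GSC1 tumours above 200 CPM were those with the highest brain score in that line. Grk2, a kinase that marks active receptors, was at 131 ± 22.9 CPM in GSC2 and 170 ± 26.3 CPM in GSC1, and the endosomal sorting genes Hgs and Stam had log2 fold changes of -0.44 (SE 0.31) and -0.28 (SE 0.20).

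Migration effectors, kinases and small GTPase regulators below CXCR4, had 16 of 27 positive folds and a median of 0.04. Prex1, a Rac exchange factor gene, was at 180 ± 54.1 CPM in GSC2 and 121 ± 26.8 CPM in GSC1. Ptk2b, the gene of the focal adhesion kinase relative PYK2, was at 96.3, 133 and 199 CPM in GSC2 replicates 1 to 3 and at 118, 52.9, 9.46 and 13.4 CPM in GSC1 replicates 1 to 4, with low values in GSC1 replicates 3 and 4 (log2 fold change 1.56, SE 0.84). Its fold change was 2.50 without GSC1 replicate 1 and 0.41 without the 3 libraries with fewer reads of long transcripts. Akt1 had a log2 fold change of -0.47 (SE 0.27) and Pik3cd of 0.54 (SE 0.33).

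Factors known to act on Cxcr4 or Cxcl12 transcription had 5 of 15 positive folds and a median of -0.16. Hif1a, the gene of the hypoxia-inducible factor subunit, was at 175 ± 19.8 CPM in GSC2 and 219 ± 37.4 CPM in GSC1 (log2 fold change -0.33, SE 0.22). Klf2, a shear stress factor of endothelium, was at 13.8 ± 2.86 CPM in GSC2 and 22.1 ± 6.70 CPM in GSC1, and Tgfb1 at 59.0 ± 1.48 CPM in GSC2 and 89.3 ± 48.2 CPM in GSC1 (SD, n = 3 and 4). Foxc2, a forkhead gene of vessels and meninges, was at most 0.952 CPM in GSC2 and between 0.724 and 5.52 CPM in GSC1.

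**Figure D4:**
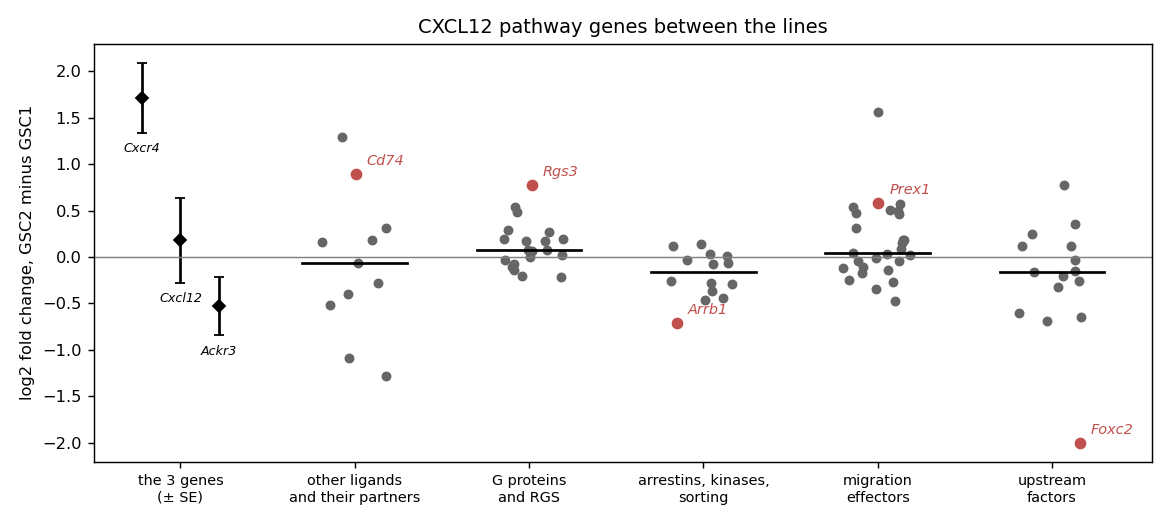
Log2 fold change, GSC2 minus GSC1 (vertical axis), of Cxcr4, Cxcl12 and Ackr3 (diamonds with ± SE) and of the 87 other pathway genes by list (points, with the median as a bar). The gene with the smallest p in each list is drawn in red and named, which for migration effectors is Prex1. Cxcr4 is at 1.72, and Ptk2b, an unnamed point among the migration effectors, is at 1.56. Their order turns round with the brain score as a covariate (1.96 for Cxcr4 and 2.45 for Ptk2b).

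Markers of cells that could carry Cxcr4 RNA are given beside it, as summed CPM of each list. Lymphocyte and NK genes summed to 8.42 to 15.9 CPM in GSC2 and 3.93 to 11.1 CPM in GSC1, with 10 of 13 means higher in GSC2. Members of the list differed in direction. Klrb1c, an NK receptor gene and the most abundant of them, was at 2.85, 1.61 and 0.652 CPM in GSC2 and at 2.52, 6.29, 0.676 and 3.00 CPM in GSC1. Of the T cell genes, Cd3e was at 0.200 to 0.814 CPM in GSC2 and at 0 in the GSC1 tumours, while Trac was at 0.254, 2.00 and 0.251 CPM in GSC2 and at 1.31 and 1.10 CPM in GSC1 replicates 3 and 4. Neutrophil genes summed to 61.5 to 179 CPM in GSC2 and 29.0 to 58.0 CPM in GSC1, with 7 of 10 means higher in GSC2 and S100a8 at most at 1.19 CPM. The most abundant of them on average was Lcn2, which reactive astrocytes also express, with 27.1 to 146 CPM in GSC2 and 7.04 to 36.3 CPM in GSC1. Microglia genes summed to 1171 to 1816 CPM in GSC2 and 782 to 1437 CPM in GSC1, with 9 of 11 means higher in GSC2. Monocyte and macrophage genes summed to 46.7 to 89.7 CPM in GSC2 and 59.6 to 95.2 CPM in GSC1. The part of these cells in the Cxcr4 level was not tested.

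Neural stem cell genes summed to 3502 to 4338 CPM in GSC2 and 2410 to 4999 CPM in GSC1, and neuroblast and interneuron genes to 130 to 243 CPM in GSC2 and 101 to 235 CPM in GSC1, so both sums overlapped. A score, the mean log2 CPM of a list, gives its genes equal weight. The score of 13 neural stem cell genes was 5.89, 5.96 and 5.84 in GSC2 replicates 1 to 3 and 5.55, 5.49, 5.47 and 5.44 in GSC1 replicates 1 to 4. The score of 14 neuroblast and interneuron genes was 2.73, 3.02 and 3.37 in GSC2 and 2.23, 1.92, 0.97 and 1.09 in GSC1. Of the 18 scores, 4 did not overlap between the lines, all with GSC2 above GSC1: these 2, the lymphocyte and NK score (-0.61 to 0.33 in GSC2 and -1.52 to -0.74 in GSC1) and the neutrophil score (1.13 to 1.80 in GSC2 and 0.20 to 1.09 in GSC1). A score holds only genes that passed the filter on low counts, 9 of 13 lymphocyte and NK genes and 6 of 10 neutrophil genes. Cd8a, at 0.501 to 1.53 CPM in GSC2 and at most 0.0952 CPM in GSC1, passed through the GSC2 tumours. The separation of the lymphocyte and NK score is thus in part set by the filter. Proliferation genes summed to 1450 to 2345 CPM in GSC2 and 602 to 2686 CPM in GSC1, with 13 of 15 means higher in GSC2. Within the neuroblast and interneuron list Sp8, a factor of olfactory bulb interneurons, was at 4.48, 3.05 and 15.5 CPM in GSC2 and at most 0.638 CPM in GSC1, while Reln was at most 17.6 CPM in GSC2 and at 8.35, 8.49, 41.0 and 74.4 CPM in GSC1, so the members of the list did not all have the same pattern. Their part in the Cxcr4 level was not tested.

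Genes of vessels, meninges and astrocytes, where Cxcl12 or Ackr3 is known to be expressed, mostly had lower means in GSC2. Endothelial genes summed to 313 to 439 CPM in GSC2 and 406 to 483 CPM in GSC1, with 1 of 15 means higher in GSC2, and pericyte and smooth muscle genes to 194 to 321 CPM in GSC2 and 233 to 812 CPM in GSC1, with 4 of 12. Fibroblast and meningeal genes summed to 459 to 621 CPM in GSC2 and 431 to 2429 CPM in GSC1, with 1 of 10. Astrocyte genes summed to 3011 to 7771 CPM in GSC2 and 2111 to 15498 CPM in GSC1, with 2 of 12. Over all genes tested, 46.3% of folds were positive. In the meningeal and astrocyte scores GSC1 replicates 3 and 4 were above every GSC2 tumour, and replicates 1 and 2 were below every one. The fibroblast and meningeal score was 3.87, 3.73, 6.84 and 6.78 in GSC1 and 4.36 to 5.32 in GSC2. The astrocyte score was 6.72, 6.12, 9.29 and 9.07 in GSC1 and 6.94 to 8.36 in GSC2.

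Each member was related to 18 marker scores over the 7 tumours, 54 relations in all, with two-sided exact permutation tests over all pairings of the tumours. None passed after Benjamini-Hochberg adjustment by Pearson's r or by Spearman's rho, and 6 had an unadjusted p under 0.05 by Pearson's r. Cxcr4 with the neuroblast and interneuron score had r = 0.951 (exact permutation p = 0.00377, adjusted p = 0.204) and rho = 0.929 (exact permutation p = 0.00675, adjusted p = 0.364). Pearson's r was 0.849 without the 2 tumours whose score lay farthest from the median. Cxcr4 and that score both separate the lines. Their relation over all 7 tumours thus repeats in part the line difference with which Cxcr4 was chosen and is not read as evidence. Values were therefore also centred within each line, which gave r = 0.800 (exact permutation p = 0.146, adjusted p = 0.358). Within lines the smallest p the tumours allow is 0.00694, which adjusted over 54 relations is 0.375 for a relation that reaches it alone, so the adjusted values there could hardly pass and are not read as evidence.

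Cxcr4 showed little relation to the hypoxia score over all tumours, with r = 0.199 (exact permutation p = 0.671, adjusted p = 0.791) and rho = 0.357 (exact permutation p = 0.444, adjusted p = 0.686). Pearson's r was 0.628 without the 2 tumours whose score lay farthest from the median. Its 13 genes summed to 1449 to 2311 CPM in GSC2 and 2281 to 2615 CPM in GSC1, with 4 of 13 means higher in GSC2. The score, their mean log2 CPM, was 5.62, 5.44 and 5.86 in GSC2 replicates 1 to 3 and 5.92, 6.23, 5.40 and 5.59 in GSC1 replicates 1 to 4. Within each line the tumours stood in the same order in Cxcr4 and in the score, with r = 0.984 after centring (exact permutation p = 0.00694, adjusted p = 0.316). The GSC1 tumours stand in exactly the reverse order in brain score, so hypoxia genes and brain content cannot be told apart there.

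Ackr3 had r = 0.792 with the same hypoxia score (exact permutation p = 0.0351, adjusted p = 0.362) and rho = 0.714 (exact permutation p = 0.0881, adjusted p = 0.529). Pearson's r was 0.805 within lines (exact permutation p = 0.0694, adjusted p = 0.316) and 0.323 without the 2 tumours whose score lay farthest from the median. Leaving out each tumour in turn, it ranged from 0.564 to 0.890. Dropping the 2 most extreme scores also narrows their range, so the lower r cannot show that the relation rests on those tumours. The GSC1 tumours stood in the same order in Ackr3 as in the hypoxia score, the reverse of their order in brain score. Hypoxia genes and brain content cannot be told apart for Ackr3 there either. Cxcl12 had r = 0.815 with the score of 9 Cajal-Retzius and granule precursor genes (exact permutation p = 0.0327, adjusted p = 0.362) and rho = 0.750 (exact permutation p = 0.0663, adjusted p = 0.511). It was 0.815 within lines (exact permutation p = 0.0278, adjusted p = 0.316) and 0.845 without the 2 farthest tumours. Pearson's r of Cxcl12 was nearly as high with the astrocyte (0.742), neuron (0.699) and oligodendrocyte progenitor (0.677) scores. The relation is thus not particular to the Cajal-Retzius and granule precursor list. In that list Zic1, a factor of cerebellar granule cells and of meninges, was at 104 and 127 CPM in GSC2 replicates 2 and 3 and lower in replicate 1, and at 1.91, 2.32, 135 and 306 CPM in GSC1. Its relative Zic2 was at 35.7, 51.5 and 51.8 CPM in GSC2 and at 20.9, 24.4, 23.0 and 95.1 CPM in GSC1, and Atoh1, which defines granule precursors, was at 0 in all 7 tumours.

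**Figure D5:**
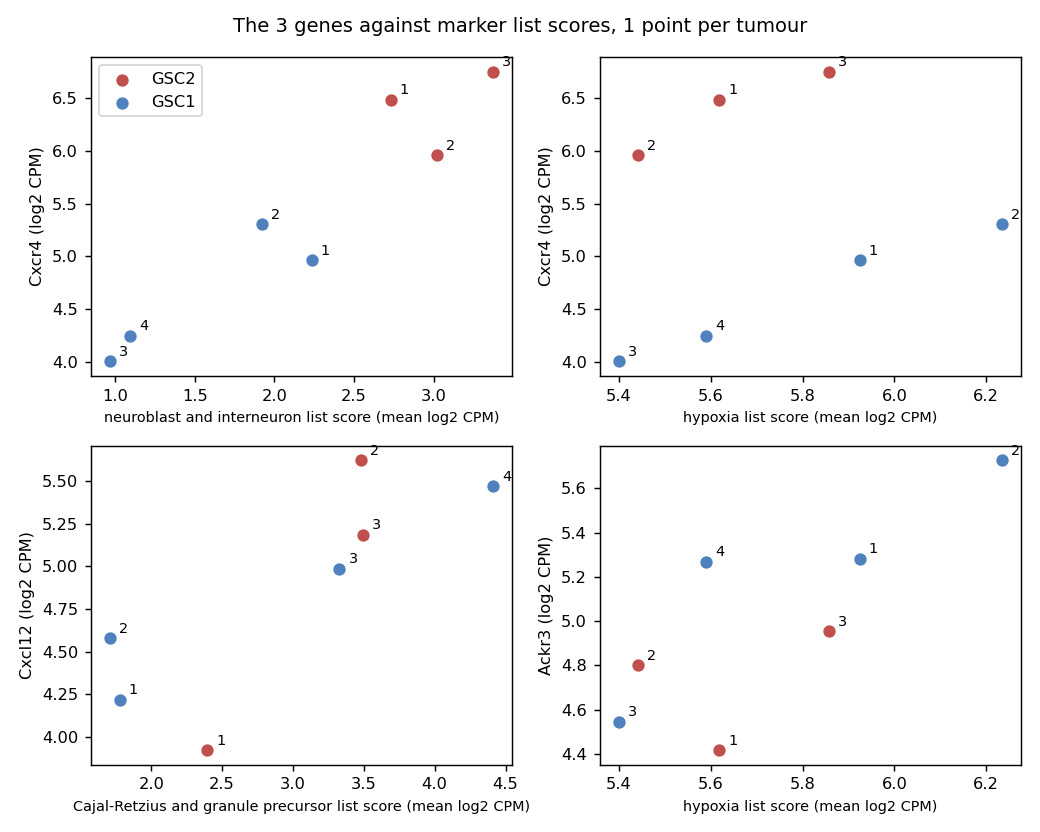
Log2 CPM of a member (vertical axis) against the mean log2 CPM of a marker list (horizontal axis), 1 point per tumour with its replicate number and colour by line. Cxcr4 is higher at a higher hypoxia score within each line, at a different height in each, with r = 0.199 over all 7 tumours and 0.984 after centring within lines.

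The 3 remaining relations under an unadjusted p of 0.05 all concerned Cxcr4. The neural stem cell score had r = 0.865 (exact permutation p = 0.0246, adjusted p = 0.362), rho = 0.786 (exact permutation p = 0.0480, adjusted p = 0.511), r = 0.915 without the 2 farthest tumours and r = -0.02 within lines. The lymphocyte and NK score had r = 0.780 (exact permutation p = 0.0403, adjusted p = 0.362), rho = 0.857 (exact permutation p = 0.0238, adjusted p = 0.429), r = 0.769 without the 2 farthest tumours and r = 0.136 within lines. Both scores separate the lines, as Cxcr4 does. Their relations over all 7 tumours thus repeat the line difference with which Cxcr4 was chosen and are not read as evidence. The pericyte and smooth muscle score had r = -0.797 (exact permutation p = 0.0353, adjusted p = 0.362), rho = -0.750 (exact permutation p = 0.0663, adjusted p = 0.511), r = -0.205 without the 2 farthest tumours and r = -0.940 within lines (exact permutation p = 0.0347, adjusted p = 0.316). Leaving out each tumour in turn, r with the pericyte score ranged from -0.874 to -0.681. Dropping the 2 most extreme scores also narrows their range, so the weaker r cannot show that the relation rests on those tumours. Within lines an unadjusted p under 0.05 was also reached by Cxcr4 with endothelial genes (r = -0.935, exact permutation p = 0.0278), Cxcr4 with oligodendrocyte progenitor genes (r = -0.858, exact permutation p = 0.0486) and Cxcl12 with choroid plexus genes (r = 0.633, exact permutation p = 0.0347), each with an adjusted p of 0.316. Within lines r of Cxcr4 was of like size with the astrocyte (-0.862), neuron (-0.855), mature oligodendrocyte (-0.826) and proliferation (0.862) scores, none at an exact permutation p under 0.05. The within-line relations of Cxcr4 are thus not particular to the lists named, and the part of brain content in them was not tested.

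No relation between the levels of ligand and receptors was detectable with 7 tumours. Cxcr4 with Cxcl12 had r = -0.177 (exact permutation p = 0.690, adjusted p = 0.896) and rho = -0.071 (exact permutation p = 0.906, adjusted p = 0.963). Cxcr4 with Ackr3 had r = -0.230 (exact permutation p = 0.612, adjusted p = 0.896) and rho = -0.179 (exact permutation p = 0.713, adjusted p = 0.963). Cxcl12 with Ackr3 had r = 0.058 (exact permutation p = 0.896, adjusted p = 0.896) and rho = 0.036 (exact permutation p = 0.963, adjusted p = 0.963). Without the 2 tumours farthest from the median of the first gene, r was -0.378, -0.712 and -0.474 for these 3 pairs. Within lines the 3 values were -0.546, 0.706 and 0.124, with exact permutation p of 0.208, 0.132 and 0.757.

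The genes whose pattern was most like each member's were taken from 11970 genes with a mean of at least 5 CPM by Pearson's r of log2 CPM over the 7 tumours, as the highest of many and so with no test. For Cxcr4 these were Crym, a thyroid hormone binding protein gene (r = 0.988), Rps26-ps1 (0.978), the Hedgehog co-receptor gene Gas1 (0.973), the gene of the Frizzled ligand norrin, Ndp (0.972), Hmgn2-ps1 (0.972) and the synaptic scaffold gene Homer1 (0.968). Crym was at 37.5, 29.7 and 41.4 CPM in GSC2 replicates 1 to 3 and between 9.58 and 15.6 CPM in GSC1, and in each line its tumours stood in the same order as in Cxcr4. Gas1 was at 143, 87.0 and 164 CPM in GSC2 and at 48.0, 56.9, 39.5 and 38.1 CPM in GSC1. The 2 pseudogenes can share reads with their parent genes, so their levels are uncertain.

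For Cxcl12 the nearest were Slitrk2, a neuronal adhesion gene (r = 0.957), the magnesium transporter gene Slc41a1 (0.955), the autophagy gene Atg7 (0.948), Noct (0.930), the NMDA receptor subunit gene Grin2d (0.928) and the cilia gene Cfap54 (0.924). Slitrk2 was at 8.40, 23.0 and 18.8 CPM in GSC2 replicates 1 to 3 and at 13.5, 15.0, 16.6 and 21.9 CPM in GSC1 replicates 1 to 4, so like Cxcl12 it had both its lowest and its highest level in GSC2. For Ackr3 the nearest were Fgfbp3, an FGF carrier gene (0.968), Bmp2, the gene of bone morphogenetic protein 2 (0.966), Csn3 (0.959), the mucin-type glycosyltransferase gene Galnt10 (0.954), Cryz (0.948) and Pfkl, a phosphofructokinase gene of glycolysis (0.929). Bmp2 was at 4.88, 7.40 and 6.72 CPM in GSC2 and at 11.3, 18.5, 4.57 and 8.86 CPM in GSC1. Pfkl was at 111, 125 and 166 CPM in GSC2 and at 283, 307, 133 and 185 CPM in GSC1. Like Ackr3, both were highest in GSC1 replicate 2.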

How the data were processed

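Libraries of total RNA from 7 tumours were made with a NEBNext Ultra kit. The authors deposited, for each tumour, unnormalised read counts by Ensembl gene. The submitters' processing notes name TopHat2 2.0.11, HTSeq and the genome builds mm9 and dm3 and give no role for any of them. Strand and overlap settings of the counting were not found in those notes, so overlapping and antisense genes cannot be separated. The 5 summary lines of each file were set aside; no-gene reads were 6.19 to 14.2%, multiply placed reads 12.8 to 21.0% and ambiguous reads 0.357 to 0.460%. Symbols (for 32897 identifiers) and transcript lengths were taken from GENCODE M21. Groups and replicate numbers follow the titles. Between any pair of libraries chi-square per degree of freedom was 70.0 or more, beyond sampling noise. P-values measure the spread between these tumours.

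Counts were fitted in R 4.3.3 with edgeR 4.0.16, using TMM factors, filterByExpr and the robust quasi-likelihood test of GSC2 against GSC1, with Benjamini-Hochberg adjustment over all genes at 0.05. The SE of a log2 fold change is its size over the square root of F. Scores are means of log2 CPM, with a prior count of 2, over the genes of a list that passed the filter. Correlations were tested in Python 3.11.15. The members, lists and alternatives were chosen with earlier results of these data known. Alternatives were RLE factors, no filter, DESeq2 1.42.0, limma-voom from limma 3.58.1, the brain score as a covariate, a replicate block, each tumour left out, and 3 libraries left out that earlier results had shown to hold fewer reads of long transcripts. Named genes were the members, up to 4 per pathway list by p, 6 per member by likeness and the 2 most abundant of a marker list. Mif, Rab7, Cd3e, Cd8a, Trac, S100a8, Sp8 and Atoh1 were named after their values were seen.

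In simulated counts with 50 genes at each size among 16068, edgeR called 0% of genes with a 2-fold difference, 42% at 4-fold, 84% at 8-fold and 94% at 16-fold. It made 8 calls among genes simulated without a difference. In the tumours themselves the same test called 0 genes, with log2 fold changes from -6.61 to 6.77 over all genes tested. The simulated percentages are thus not read as the share of such differences that the test would find in these tumours.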

Additional observations from a re-analysis of the deposited data

How the results depend on the processing

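No alternative changed the sign of the Cxcr4 or Ackr3 difference, and Cxcl12 changed sign in 1 of them. With each tumour left out in turn the log2 fold change ranged from 1.50 to 1.98 for Cxcr4, from -0.73 to -0.33 for Ackr3 and from -0.20 to 0.53 for Cxcl12, the lowest without GSC2 replicate 2. Cxcr4 moved by more than the spread between tumours only without the 3 short-biased libraries, to 1.10. In the same alternatives 0 of the 87 pathway genes passed. Over all genes edgeR's quasi-likelihood test called 0 with all tumours, with RLE factors, with the replicate block and without any single tumour, 1 without a filter and 55 without the 3 short-biased libraries. It called 176 with the brain score, while limma-voom called 1 and DESeq2 192. The cause was not tested.

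With the replicate number as a block the log2 fold changes were 1.64 for Cxcr4, 0.32 for Cxcl12 and -0.47 for Ackr3. The titles do not say whether the numbers pair the tumours. Deviations from the line means correlated at 0.583, -0.306 and 0.409 between same-numbered tumours, and not every tumour matched its own number best. Tumours of a line also differ in brain score, so these values cannot exclude a pairing.

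None of the 54 marker relations and 3 pairs passed with another prior count or with RLE factors. With 6 tumours the smallest p is 0.00139, or 0.075 adjusted over 54 relations for a relation that reaches it alone, so p-values without 1 tumour say nothing of stability. Leaving out each tumour, r ranged from -0.106 to 0.345 for Cxcr4 with hypoxia, from -0.213 to 0.327 for Cxcr4 with oligodendrocyte progenitors, from -0.382 to 0.170 for Cxcr4 with Cxcl12, from -0.650 to 0.033 for Cxcr4 with Ackr3 and from -0.477 to 0.271 for Cxcl12 with Ackr3, so these signs rest on single tumours. The fold change of Rgs4 ranged from -0.20 to 0.84 and that of Ptk2b from 1.19 to 2.50. Without the 3 short-biased libraries Rgs3 (1.40) and Rgs4 (1.44) exceeded Cxcr4. Ptk2b exceeded it with limma-voom (2.13 against 1.75 for Cxcr4), with the replicate block (1.70 against 1.64) and with the brain score (2.45 against 1.96). It also did so without GSC1 replicate 1 (2.50 against 1.81) and without GSC2 replicate 1 (1.77 against 1.69). The median ratio of Cxcr4 to Cxcl12 per length in GSC1 was 1.12 with the shortest coding transcript. Counting intervals of neighbouring tumours overlapped at 1 of 6 steps for Cxcr4, 2 for Cxcl12 and 3 for Ackr3, so depth limits the order of those tumours.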
